A study of Oryctolagus cuniculus with 12 samples.

Results

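Osteoarthritis (OA) was compared with control in the condylar cartilage of the rabbit jaw (temporomandibular) joint, using the 6 libraries whose titles name condylar cartilage cells, 3 of OA and 3 of control, out of the 12 bulk RNA-seq libraries of the series. All the animals were rabbits (Oryctolagus cuniculus) of the genotype labelled WT. OA had been produced by surgery in which a punch removed a 2.5 mm piece of the rear outer part of the joint disc, while the condyle was shielded and the disc attachments were kept. The labels give the disease state Control for the other group and do not say whether those joints were opened, and the age of the rabbits, the time between surgery and collection, the number of animals and any pooling are not given in the sources used here.

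The mandibular condyle is capped by a fibrous surface layer over a cartilage in which chondrocytes proliferate, mature, become hypertrophic and are replaced by bone. The cartilage matrix is built of type II collagen and aggrecan in the deep zones, and hypertrophic chondrocytes make type X collagen. Directly under the cartilage lie the bone plate and the marrow spaces, where granulocytes, red cell precursors and megakaryocytes are formed. Osteoarthritis of this joint is known for loss of cartilage matrix and remodelling of the bone below.

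The estimated counts summed to 7326255, 14810886 and 10060508 in control libraries 1, 2 and 3, and to 15858863, 16099688 and 14291563 in OA libraries 1, 2 and 3. OA libraries 1 and 2 were near-duplicates. Their biological coefficient of variation (how much a gene varies between libraries beyond counting noise) was 0.0535, whereas it was 0.223 to 0.471 for the other pairs within a group. A chi-square of 6.62 per gene was still above what counting alone would give, and their titles name separate biological replicates. They were summed and counted as 1 sample, which left 2 OA samples and 3 control samples, and counts over all genes and by list are also given with the pair kept separate. Nuclear ribosomal RNA made up 0.185%, 0.156% and 0.164% of the control counts and 0.970%, 1.63% and 0.732% of the OA counts, and its part in the results was not tested.

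The labelled tissue was checked against cartilage markers, and control library 3 stood apart. Type II collagen, COL2A1, was at 41850 and 55490 CPM (counts per 1000000 of the scaled library total) in control libraries 1 and 2, at 915.6 in control library 3, and at 13250, 12590 and 24500 in the OA libraries. Aggrecan, ACAN, was at 9167, 11060 and 426 CPM in control and at 3082, 2978 and 4559 in OA. For both genes control library 3 was the lowest of the 6 libraries and control libraries 1 and 2 were the highest. The 13 skeletal muscle genes measured summed to 31.7, 32.1 and 3985 CPM in the control libraries and to 67.6, 107.6 and 51.0 CPM in OA, so that muscle transcripts were high in control library 3 alone. Counts over all genes, and list counts where that library moved them, are therefore given also without it.

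In OA, 118 of 14438 genes tested were higher and 7 were lower at a Benjamini-Hochberg adjusted p under 0.05 in edgeR's quasi-likelihood test, that is 0.817% and 0.0485% of the genes. Of the 118, 112 were protein-coding, 4 were long non-coding RNAs and 2 were ribosomal RNAs. Genes of blood and marrow cells were the main listed group among them, while 78 of the 118 stand in no list. Of the 133 genes tested that stand in a list of granulocyte, red cell, platelet, macrophage or lymphocyte genes, 38 were higher (28.6%) and none was lower. The lists were drawn up with earlier results of these data known, so their counts are a description. Of the 429 genes tested in the other lists, which cover cartilage, bone, vessels, muscle, signalling and cell state, 2 were higher and 4 were lower. With the near-duplicates separate these counts were 68 higher of the 133, and 12 higher and 13 lower of the 429. They were 47 higher of the blood genes, and 8 higher and 3 lower of the others, without control library 3. The 118 log2 fold changes ran from 1.90 to 11.32 with a median of 4.60, beside a median of −0.03 over all genes. In every one of the 125 genes called, the 3 OA libraries lay on the same side of the 3 control libraries. Picking genes by a small p in these same libraries favours such separation, so it is no further evidence. Over all genes the OA libraries lay above every control library in 15.1% and below every control library in 14.7%.

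The number of calls depended on how the samples were counted. With the near-duplicates kept as separate libraries, 369 genes were higher (2.54%) and 72 lower (0.495%) of 14540 tested, and 124 of the 125 genes were among them. Without control library 3, 188 were higher (1.3%) and 16 lower (0.111%) of 14446, with 111 of the 125 among them. Without control library 3 and with separate libraries, 480 were higher and 104 lower. Without control library 1 no gene passed, the smallest adjusted p being 0.081, although 1045 genes had an unadjusted p under 0.05. Without control library 2, 5 genes were higher and 1 was lower. SRGN, ATP8B4, PKHD1L1, the long non-coding RNA ENSOCUG00000037093 and APOB were the 5 of the 125 that passed there. Without OA library 3, which leaves OA with 1 sample assumed to vary like the other groups, 150 were higher and 0 lower. With only the condylar cartilage samples in the fit and the pair summed, 0 genes passed, the smallest adjusted p being 0.0566, with 1881 at an unadjusted p under 0.05. The fold changes of the 125 genes kept their sign under all 7 of these settings. The groups did not overlap in any of the 125, which made this all but certain, so it adds no evidence. Every call below is subject to these losses without control library 1 or 2. Scaling by library totals in place of TMM moved the median of all genes from −0.03 to 0.23 and gave 149 genes higher and 5 lower. Under it 7 of the 41 list medians changed sign, all of them between −0.24 and −0.02 before.

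**Figure D1:**
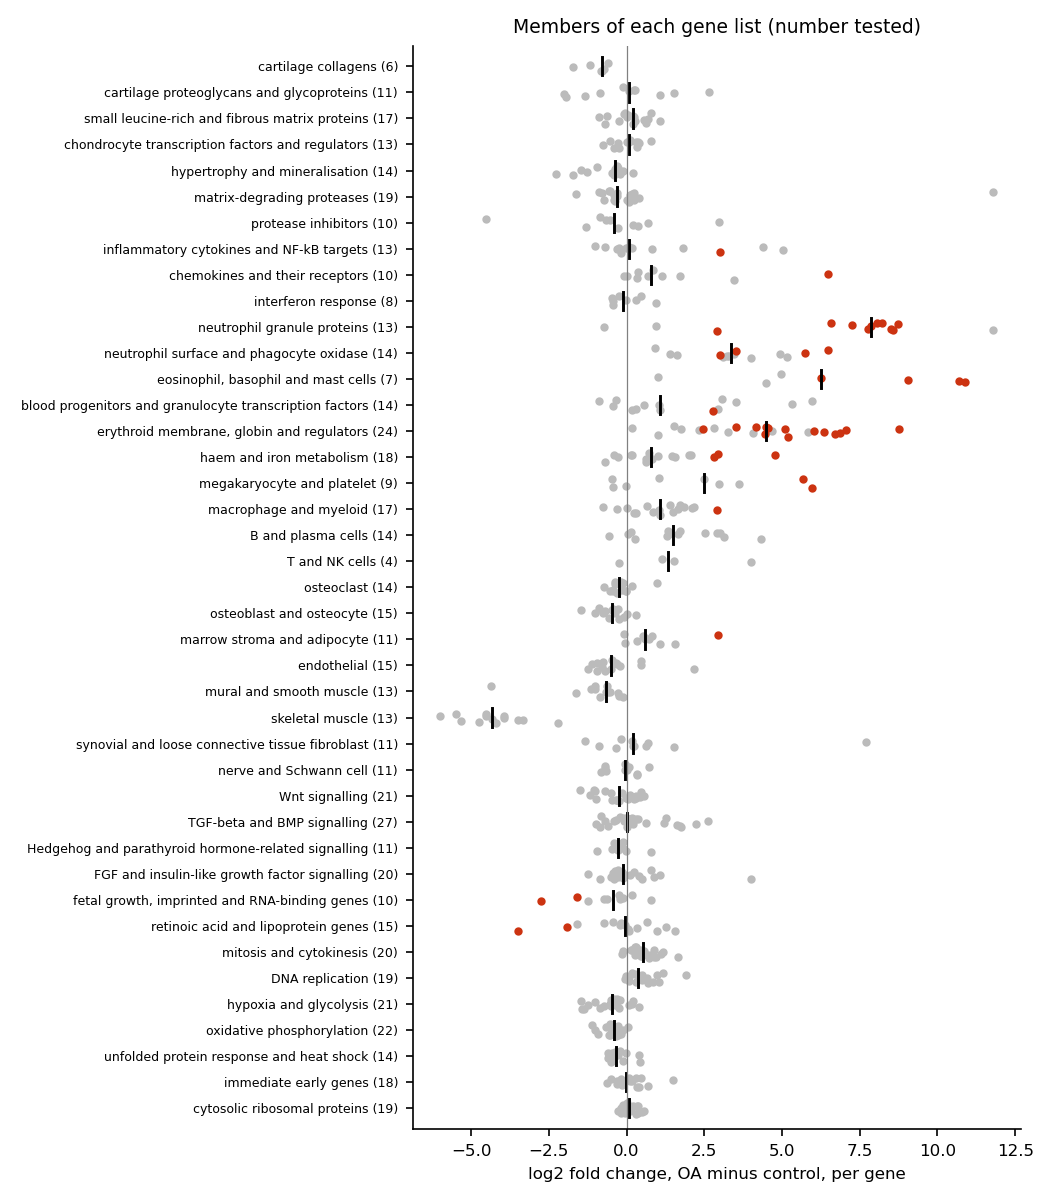
Each point is a gene, placed by its log2 fold change (OA minus control) in the row of its list, with the number of genes tested in brackets. Red points passed an adjusted p of 0.05, grey points did not, and the black bar is the median of the list. The red points to the right stand mostly in the marrow and blood cell lists, where the median reaches 7.86 for neutrophil granule proteins, and the lists of cartilage and bone genes hold no red point.

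Neutrophil granule proteins had the highest list median. Of 13 measured, 10 were higher in OA and none was lower at the threshold, with a median log2 fold change of 7.86. Of the 13 fold changes 12 were positive and 1 was negative, at −0.74, with every OA library under every control library. The list summed to 1939, 2357 and 1547 CPM in control libraries 1 to 3 and to 3666, 3558 and 2126 CPM in OA libraries 1 to 3. Lactoferrin, LTF, an iron-binding protein of neutrophil granules, was at 0, 0.287 and 2.09 CPM in control libraries 1 to 3 and at 372, 353 and 109.9 CPM in OA libraries 1 to 3 (log2 fold change 8.20 ± 1.33 SE, adjusted p = 0.0228). S100A9, a subunit of the calcium-binding protein calprotectin, was at 0, 0 and 1.43 CPM in control and at 274, 266 and 82.6 CPM in OA (8.56 ± 1.49, adjusted p = 0.0263). All 3 OA libraries were far above all controls, OA library 3 was the lowest of the OA libraries and control library 3 the highest of the controls.

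The same order held for the primary granule enzyme MPO, myeloperoxidase, at 0.447, 0.215 and 2.09 CPM in control and 128.5, 130.4 and 42.0 CPM in OA (6.57 ± 1.12, adjusted p = 0.0243). The antimicrobial proteins BPI and CAMP and the siderophore-binding LCN2 passed too. LCN2 was at 0, 0 and 2.53 CPM in control and at 552, 551 and 159.9 CPM in OA. S100A8, S100A12, PGLYRP1 and LYZ were the other 4 list members called. Lysozyme, LYZ, had the smallest change of the 10, from 21.6, 26.1 and 27.8 CPM to 273, 275 and 105.3 CPM (2.91 ± 0.41, adjusted p = 0.0171). MMP8, the neutrophil collagenase, had 0 counts in every control library and 42.7, 43.2 and 13.1 CPM in OA, and missed the threshold with an adjusted p of 0.0559. Of the 13, 11 passed without control library 3, where MMP8 had an adjusted p of 0.0483, and 11 passed with the near-duplicates separate.

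**Figure D2:**
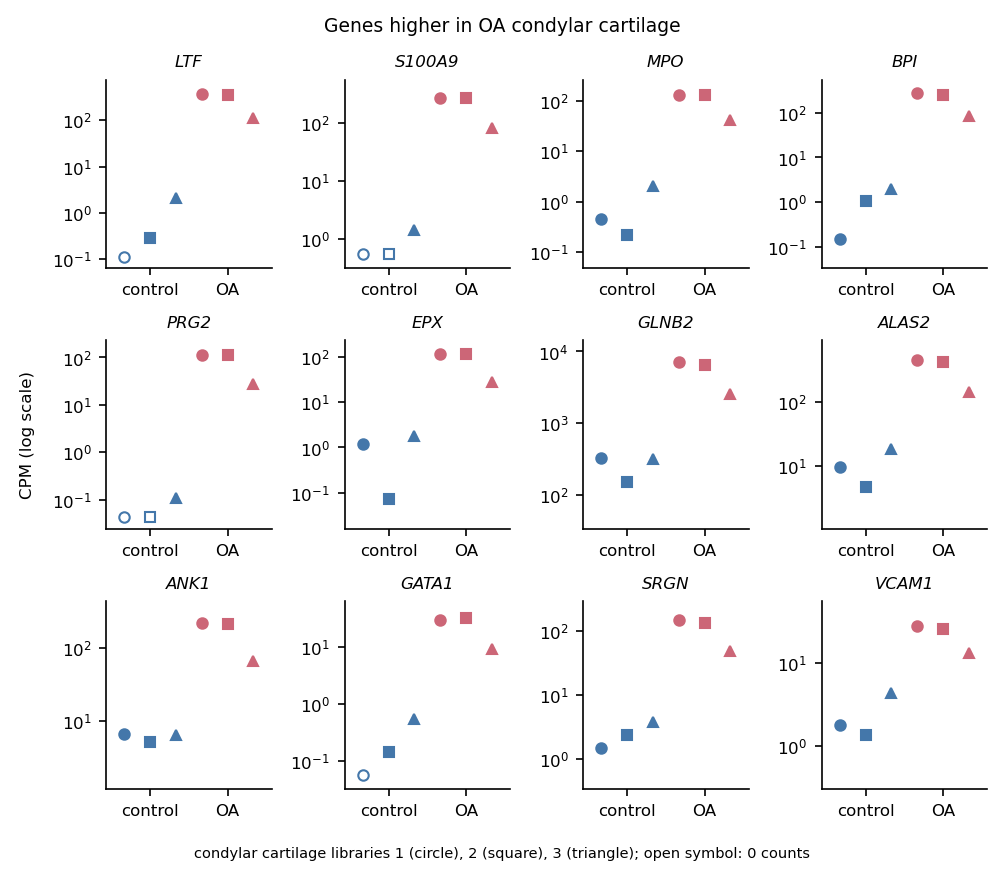
CPM of 12 genes higher in OA, on a log scale, with 1 symbol per library (3 control in blue, 3 OA in red); open symbols mark 0 counts. Every OA library lies above every control library, OA libraries 1 and 2 nearly coincide, and OA library 3 lies lower, for example at 109.9 CPM against 372 and 353 CPM for LTF.

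The gene with the symbol MCP-1, which the RefSeq naming table lists with neutrophil defensin synonyms, was at 0.893, 0.143 and 4.39 CPM in control and at 863, 847 and 294 CPM in OA (8.34 ± 1.33, adjusted p = 0.0218). ENSOCUG00000023668, with synonyms of the same kind, was at 0.149, 0 and 1.98 CPM in control and at 347, 305.5 and 111.0 CPM in OA. These sequences are similar to each other, so the division of reads between them is uncertain. The defensins are small antimicrobial peptides of the granules.

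Of the 14 neutrophil surface and phagocyte oxidase genes, 4 were higher, and the other 10 also had positive fold changes that missed the threshold. The count was 6 without control library 3 and 9 with the near-duplicates separate. The chemokine receptor CXCR2, which draws neutrophils along CXCL ligands, was at 0.298, 0.0717 and 0.110 CPM in control and at 18.8, 21.95 and 6.31 CPM in OA (6.49 ± 1.22, adjusted p = 0.0363, and 0.0539 without control library 3). The complement receptor C5AR1 and the integrin subunit ITGAM were also called. ITGAM was at 4.76, 2.08 and 9.11 CPM in control and at 97.3, 87.7 and 29.0 CPM in OA (3.53 ± 0.63, adjusted p = 0.0283).

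Eosinophil, basophil and mast cell genes showed 4 of 7 higher, with a median log2 fold change of 6.24. The median was 5.36 with the 2 genes at 0 counts in every control library set at the floor given below. The count was also 4 without control library 3, and it was 5 with the near-duplicates separate. PRG2, the major basic protein of eosinophil granules, was at 0, 0 and 0.110 CPM in control and at 114.0, 110.5 and 27.2 CPM in OA (10.70 ± 1.42, adjusted p = 0.0135). Its paralogue PRG3 had 0 counts in every control library and 23.6, 22.1 and 6.77 CPM in OA, which makes it at least 147-fold higher against a floor of 3 counts over the 3 control libraries (0.101 CPM). FCER1A, the ligand-binding chain of the IgE receptor, also had 0 counts in control and was at 5.81, 7.17 and 1.79 CPM in OA, at least 41.1-fold higher. Eosinophil peroxidase, EPX, was the fourth, at 1.19, 0.0717 and 1.76 CPM in control and at 114.1, 115.1 and 28.5 CPM in OA.

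Red cell genes rose as a second group, with 14 of 24 higher, none lower, all 24 fold changes positive and a median of 4.47. The count was 19 without control library 3 and 20 with the near-duplicates separate. GLNB2, which the RefSeq naming table calls HBB2, a beta-globin, was at 323, 149.6 and 314 CPM in control and at 7119, 6560 and 2532 CPM in OA (4.16 ± 0.63, adjusted p = 0.0184). Reads of near-identical globin copies may be divided among genes, so its level is uncertain. Per transcript length, its deposited TPM was 1359, 660.4 and 1458 in control and 36492, 34202 and 10941 in OA. In OA libraries 1 and 2 that level exceeded the TPM of COL2A1, which was 6362 and 6145, and in OA library 3, where COL2A1 was at 10795, the levels were close. In control libraries 1, 2 and 3, COL2A1 stood at 17307, 27005 and 414.3 TPM, so in control library 3 it too was under GLNB2.

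Ankyrin 1, ANK1, which anchors the membrane skeleton of the red cell, was at 6.55, 5.16 and 6.48 CPM in control and at 222, 213 and 65.7 CPM in OA (4.55 ± 0.76, adjusted p = 0.0237). EPB41, EPB42 and DMTN, which bind that skeleton, KEL and RHAG, which carry blood group antigens, AHSP, the chaperone of alpha-globin, and TRIM58, TRIM10 and HEMGN also passed. The erythroid transcription factor GATA1 was at 0, 0.143 and 0.549 CPM in control and at 29.8, 31.7 and 9.29 CPM in OA (6.36 ± 1.27, adjusted p = 0.0444). NFE2, which serves red cells and megakaryocytes, was at 2.08, 1.43 and 3.95 CPM in control and at 81.4, 76.3 and 32.5 CPM in OA. The groups did not overlap for any of these genes.

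Of 18 haem and iron genes 3 were higher and none was lower, with 3 higher without control library 3 and 7 with the near-duplicates separate. ALAS2, the erythroid enzyme that begins haem synthesis, was at 9.67, 4.59 and 18.2 CPM in control and at 460, 428 and 143.3 CPM in OA (4.77 ± 0.77, adjusted p = 0.0221). FECH, which inserts the iron, and SLC25A37, which brings iron into mitochondria, also passed. The list median was 0.79. BPGM, which makes the 2,3-bisphosphoglycerate of red cells, stood in no list and was at 11.9, 9.61 and 7.25 CPM in control and at 82.4, 75.0 and 37.1 CPM in OA (2.60 ± 0.39, adjusted p = 0.0180).

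The remaining blood lists held fewer calls. Of 9 megakaryocyte and platelet genes 2 were higher, the von Willebrand receptor subunit GP1BA and the platelet tubulin TUBB1. The 9 fold changes were positive in 6 and negative in 3, with a median of 2.5. The list summed to 459.5, 268.6 and 602.4 CPM in control and to 434.2, 419.7 and 337.3 CPM in OA, so the summed levels overlapped. None of the 9 genes passed without control library 3, where GP1BA had an adjusted p of 0.0603, and 5 passed with the near-duplicates separate. TUBB1 was at 0.149, 0.215 and 0 CPM in control and at 14.8, 12.95 and 3.25 CPM in OA (5.97 ± 1.18, adjusted p = 0.0439, and 0.0625 without control library 3). Of 14 blood progenitor and granulocyte transcription factor genes 1 was higher, TAL1, the master factor of blood formation, from 9.38, 8.75 and 8.35 CPM to 91.9, 86.6 and 32.1 CPM. It had an adjusted p of 0.0373 and of 0.0554 without control library 3. The list count was 1 there as well and 5 with the near-duplicates separate. CD34, which marks progenitors and also vessels, was at 72.5, 61.7 and 76.1 CPM in control and at 39.5, 40.4 and 36.4 CPM in OA (−0.88 ± 0.29, adjusted p = 0.282). Macrophage and myeloid genes showed 1 of 17 higher, LYZ again, with a median of 1.07. The count was 2 without control library 3 and 3 with the near-duplicates separate. One gene of this list, ENSOCUG00000008153, is LAPTM5 in the RefSeq naming table but MATN1 in the deposited table, so its identity is uncertain, and the median was 1.24 without it. The macrophage scavenger receptor CD163 was at 1.04, 0.0717 and 2.75 CPM in control and at 7.78, 5.61 and 4.51 CPM in OA (2.16 ± 0.84, adjusted p = 0.431).

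No lymphocyte gene passed with all 6 libraries and the pair summed. The 14 B and plasma cell genes had a median of 1.51, and of 3.16 without control library 3, where 2 were higher. With the near-duplicates separate 3 were higher. The B cell antigen MS4A1 was at 0, 0.143 and 1.10 CPM in control and at 11.7, 12.8 and 4.58 CPM in OA (4.32 ± 1.12, adjusted p = 0.128, and 0.0322 without control library 3). The 4 T and NK cell genes tested had a median of 1.33, and 1 was higher with the near-duplicates separate. Of the 11 marrow stroma and adipocyte genes only CD36, a fatty acid carrier also present on platelets and red cell precursors, was higher, from 0.893, 2.22 and 3.51 CPM to 23.0, 26.4 and 9.82 CPM (adjusted p = 0.0465). Its list had a median of 0.58. The fat hormone ADIPOQ, a marker of marrow fat, was at 16.4, 10.3 and 57.7 CPM in control and at 61.6, 54.7 and 34.5 CPM in OA, with overlapping groups. In bulk tissue fewer cells of a type and less RNA per cell cannot be told apart.

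The genes called higher also differed within the OA group, in a common order. OA library 3 lay under both near-duplicate OA libraries in 112 of the 118 genes, beside 41.8% of all genes tested. The ratio of OA library 3 to OA libraries 1 and 2 had a median of 0.340 over the 118 genes, with quartiles of 0.304 and 0.408. Over all genes the median ratio was 0.998, with quartiles of 0.809 and 1.22. Red cell and granulocyte genes had similar ratios, for example 0.302 for ANK1, 0.303 for LTF and 0.370 for GLNB2. Control library 3 was the highest of the controls in 83 of the 118, beside 41.7% of all genes. The summed level of the 24 red cell genes was 524 to 644 CPM over the control libraries and 10440, 9780 and 3678 CPM in OA libraries 1, 2 and 3, so the OA samples differed among themselves in this content. The amount of marrow or blood taken with each piece of tissue was not measured, and its part in these results was not tested.

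**Figure D3:**
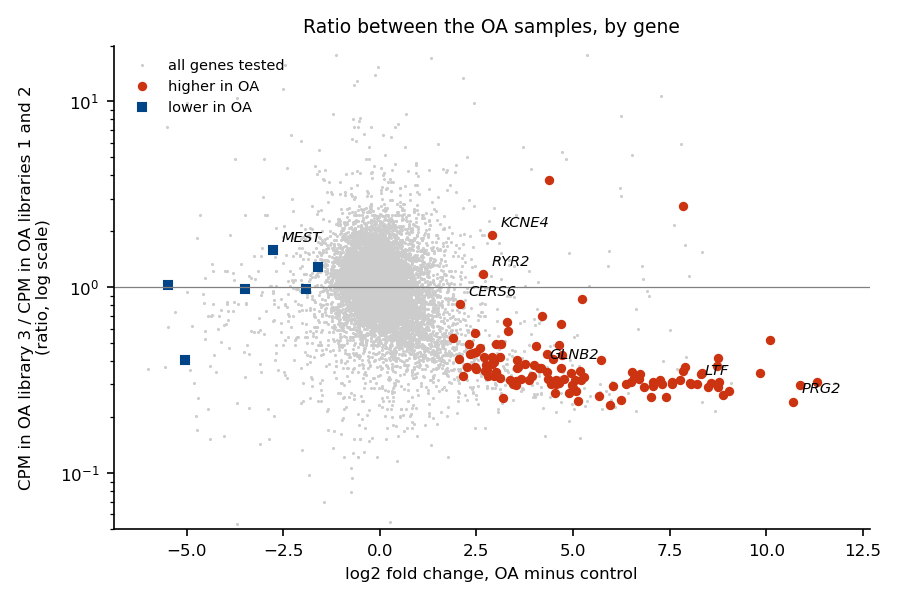
Each point is a gene, placed by its log2 fold change (OA minus control) on the x axis and by the ratio of its CPM in OA library 3 to that in OA libraries 1 and 2 on the y axis, on a log scale limited to ratios of 0.05 to 20. The red points (higher in OA) gather at ratios near 0.340 and the grey cloud of all genes tested centres near 1; 1 gene lower in OA has 0 counts in OA library 3 and is not drawn.

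A few of the genes called higher did not follow that ratio, and 13 of the 118 had one above 0.5. In 4 of them OA library 3 was the highest of the 6 libraries. The potassium channel subunit KCNE4 was at 0.298, 0.932 and 0.769 CPM in control and at 3.45, 3.88 and 6.97 CPM in OA (2.91 ± 0.51, adjusted p = 0.0263). The calcium release channel RYR2 was at 2.08, 2.65 and 5.49 CPM in control and at 18.6, 21.4 and 23.7 CPM in OA (2.67 ± 0.48, adjusted p = 0.0279). The other 2 were long non-coding RNAs, ENSOCUG00000037093, at 0.149, 0.502 and 0 CPM in control and 26.6, 38.6 and 89.0 CPM in OA, and ENSOCUG00000035230, at 1.79, 1.00 and 2.42 CPM in control and 13.2, 16.7 and 57.0 CPM in OA. The ceramide synthase CERS6 had a ratio of 0.809, rising from 4.32, 4.45 and 5.60 CPM to 21.3, 23.1 and 18.0 CPM (2.07 ± 0.36, adjusted p = 0.0263). These genes were picked for that ratio after their values were seen. KCNE4, RYR2, CERS6 and ENSOCUG00000035230 lost their calls without OA library 3.

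The gene with the smallest adjusted p was SRGN, serglycin, the proteoglycan that packs the granules of blood cells, at 1.49, 2.37 and 3.73 CPM in control and at 145.3, 131.9 and 48.9 CPM in OA (5.19 ± 0.52, adjusted p = 0.00806). The phospholipid flippase ATP8B4 went from 11.3, 9.03 and 7.58 CPM to 155.3, 156.9 and 63.1 CPM (3.56 ± 0.39, adjusted p = 0.00832). PKHD1L1, TSPAN33, MS4A3, CHIT1 and CES1 were further named genes of smallest p that stand in no list. MS4A3, a marker of granulocyte precursors, was at 0, 0.215 and 0.549 CPM in control and at 78.1, 80.8 and 24.1 CPM in OA (7.56 ± 0.97, adjusted p = 0.0110). All of these were lowest in OA library 3 among the OA libraries. Among the genes called, 2 nuclear ribosomal RNA genes were also higher, with ENSOCUG00000027166 at 81.1, 49.0 and 137.3 CPM in control and at 2217, 4347 and 1415 CPM in OA.

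Inflammatory genes had 1 call in 13, and the list median was 0.07. VCAM1, an adhesion molecule induced by NF-kB that is also carried by marrow stromal cells and macrophages, was at 1.79, 1.36 and 4.39 CPM in control and at 28.3, 25.9 and 13.4 CPM in OA (3.02 ± 0.53, adjusted p = 0.0263, and 0.0119 without control library 3). The interleukin IL1B was at 0, 0.287 and 0.220 CPM in control and at 6.19, 5.29 and 2.46 CPM in OA (4.39 ± 1.24, adjusted p = 0.173). CXCL8, the neutrophil chemokine, was at 0, 0.143 and 0 CPM in control and at 2.90, 3.02 and 1.59 CPM in OA (5.02 ± 1.11, adjusted p = 0.0917). With 12 separate libraries CXCL8 and IL1B had adjusted p of 0.0287 and 0.0470. The prostaglandin synthase PTGS2 was at 12.8, 7.82 and 5.93 CPM in control and 8.16, 9.28 and 11.02 CPM in OA, and NOS2 was at 5.06, 4.23 and 2.97 CPM in control and 1.59, 2.27 and 3.12 CPM in OA. The groups overlapped for both. Of 10 chemokines and receptors CXCR2 was the 1 call, with 9 fold changes positive and a median of 0.78. Every OA library lay above every control library in 6 of the 10, beside 15.1% of all genes. Without control library 3 the 1 call was CXCR1 (adjusted p = 0.0324), and CXCR2 had an adjusted p of 0.0539. With the near-duplicates separate 2 passed. None of 8 interferon response genes passed, with a median of −0.13.

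Only 7 genes were lower in OA, and 4 of them are protein-coding genes with a symbol. In these 4 the ratio of OA library 3 to OA libraries 1 and 2 was 0.974 to 1.59. The median ratio was 0.998 over all genes tested and 0.340 over the genes that rose. Another gene called lower had no counts in OA library 3. Cellular retinoic acid binding protein 2, CRABP2, which carries retinoic acid to the nucleus, was at 28.3, 29.2 and 47.7 CPM in control and at 8.98, 9.82 and 9.16 CPM in OA (−1.92 ± 0.35, adjusted p = 0.0293, and 0.0426 without control library 3). Apolipoprotein B, APOB, the main protein of low-density lipoprotein, was at 15.5, 4.30 and 12.4 CPM in control and at 1.26, 0.647 and 0.929 CPM in OA (−3.49 ± 0.62, adjusted p = 0.0263). MEST, an imprinted gene in human and mouse, was at 27.2, 20.9 and 18.7 CPM in control and at 1.92, 3.18 and 4.05 CPM in OA (−2.76 ± 0.53, adjusted p = 0.0384). The RNA-binding protein IGF2BP2, which binds IGF2 mRNA, was at 29.9, 22.7 and 28.4 CPM in control and at 8.16, 7.44 and 10.02 CPM in OA (−1.60 ± 0.32, adjusted p = 0.0478, and 0.0732 without control library 3). Every OA library was under every control library in these 4, and all 4 lost their calls without OA library 3.

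These 4 genes were 2 of the 15 tested in the retinoic acid and lipoprotein list, whose median was −0.05, and 2 of the 10 in the list of fetal growth and imprinted genes, whose median was −0.43. Both lists were drawn up with earlier results of these data known and are no independent evidence. In the retinoic acid list CRABP1 was at 2.68, 3.37 and 6.15 CPM in control and at 13.6, 16.1 and 9.09 CPM in OA (1.56 ± 0.38, adjusted p = 0.0977), the opposite sign to CRABP2. It was called higher with 12 separate libraries (adjusted p = 0.0148) and without control library 3 (adjusted p = 0.0307). The other 3 genes called lower were a Metazoa_SRP gene, one of many near-identical copies of a structural RNA and so uncertain, the processed pseudogene ENSOCUG00000024788 and the protein-coding gene ENSOCUG00000027406, which has no symbol. ENSOCUG00000024788 was at 18.2, 47.6 and 4.83 CPM in control and at 0.821, 0.216 and 0.531 CPM in OA (−5.48 ± 0.92, adjusted p = 0.0243).

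The following genes missed the threshold on the lower side and were picked after their values were seen. ALDH1A3, an enzyme that makes retinoic acid, was at 30.5, 32.8 and 25.6 CPM in control and at 9.58, 8.79 and 10.6 CPM in OA (−1.59 ± 0.38, adjusted p = 0.0950, and 0.0146 with 12 separate libraries). PEG10, a paternally expressed gene in human and mouse, was at 77.5, 75.9 and 82.7 CPM in control and at 29.1, 33.9 and 35.1 CPM in OA (−1.24 ± 0.31, adjusted p = 0.102, and 0.0127 with 12 separate libraries). The endothelial receptor ROBO4 was at 43.6, 40.8 and 39.1 CPM in control and at 15.5, 16.3 and 18.8 CPM in OA (−1.25 ± 0.30, adjusted p = 0.0988, and 0.0119). Control library 3 lay with the other controls in all 3 of these genes. SYT7, a calcium sensor of membrane fusion, and the vessel peptide APLN had adjusted p of 0.0546 and 0.0633.

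**Figure D4:**
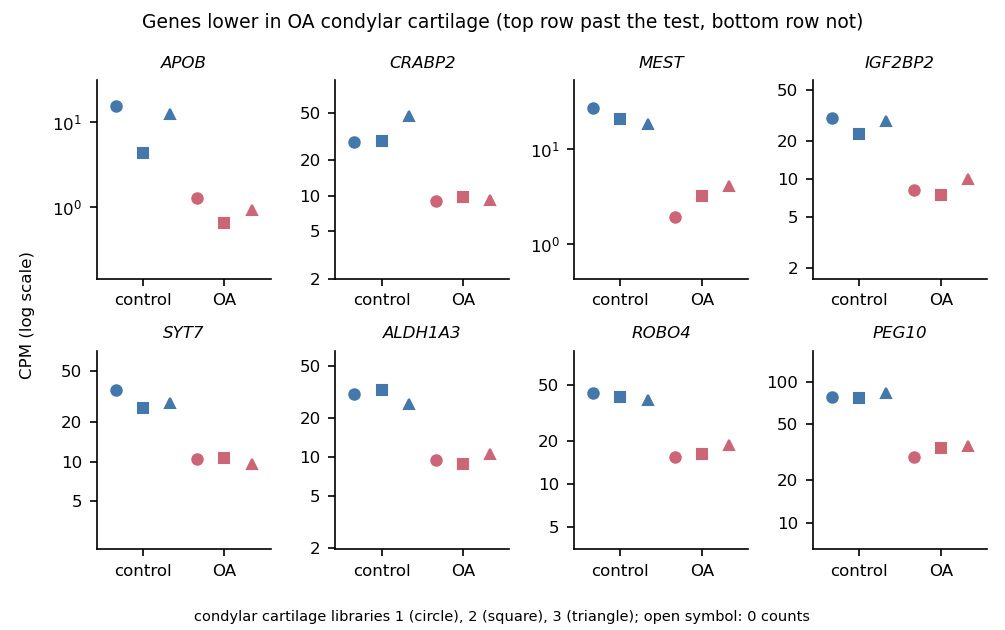
CPM of 8 genes by library, on a log scale, in control (blue) and OA (red); the 4 in the top row passed an adjusted p of 0.05 and the 4 in the bottom row did not. In each panel the 3 OA libraries lie under the 3 control libraries, for example at 8.98, 9.82 and 9.16 CPM against 28.3, 29.2 and 47.7 CPM for CRABP2.

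No cartilage matrix gene passed with all 6 libraries and the pair summed. With the near-duplicates separate, CILP and PRG4 were higher and MATN4 was lower. Without control library 3 none passed, and less OA superficial zone library 1 as well, CILP, PRG4 and VIT were higher and ACAN, HAPLN1, MATN3, MATN4 and COL11A1 were lower. The 6 cartilage collagens all had negative fold changes, with a median of −0.80 and of −1.35 without control library 3, and adjusted p from 0.714 to 0.958. COL2A1 had a log2 fold change of −0.81 ± 1.33 (adjusted p = 0.941) and of −1.38 without control library 3 (adjusted p = 0.803). The OA libraries lay between control library 3 and control libraries 1 and 2 in COL2A1, COL9A1, COL9A2, COL10A1, COL11A1 and COL11A2. Type X collagen, COL10A1, the product of hypertrophic chondrocytes, was at 10160, 14710 and 179 CPM in control and at 2045, 1929 and 3093 CPM in OA. The summed cartilage collagens were 73230 and 99010 CPM in control libraries 1 and 2, 5486 CPM in control library 3 and 21500 to 39390 CPM in OA. The spread among the controls was wider than the difference between the groups.

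The 11 cartilage proteoglycans and glycoproteins had a median of 0.09, and of −0.36 without control library 3. They include the gene ENSOCUG00000008153 of uncertain identity, without which the median was −0.01. The link protein HAPLN1, which ties aggrecan to hyaluronan, followed ACAN, at 3351, 6311 and 109.6 CPM in control and at 789, 798 and 1805 CPM in OA. Genes of this list with small spreads in control were chosen after their values were seen. Cartilage intermediate layer protein, CILP, was at 5.81, 14.5 and 10.4 CPM in control and at 68.5, 73.7 and 58.8 CPM in OA (2.65 ± 0.55, adjusted p = 0.0503, 0.0141 with 12 separate libraries and 0.0728 without control library 3). Matrilin 4, MATN4, was at 2.98, 2.15 and 2.64 CPM in control and at 0.821, 0.593 and 0.531 CPM in OA (−2.02 ± 0.44, adjusted p = 0.0633). Lubricin, PRG4, which lubricates the joint surface, was at 18.5, 31.4 and 39.9 CPM in control and at 106.8, 117.5 and 60.1 CPM in OA (1.53 ± 0.43, adjusted p = 0.173). For CILP and PRG4 every OA library was above every control library, and for MATN4 every OA library was below. OA library 3 was close to the other OA libraries in CILP.

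**Figure D5:**
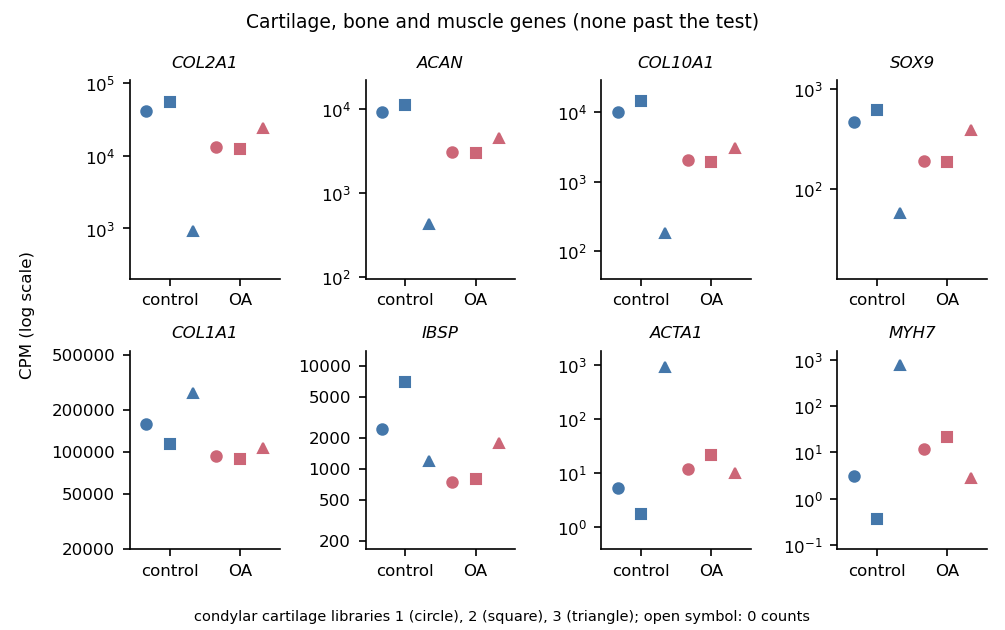
CPM of 8 cartilage, bone and muscle genes by library, on a log scale, in control (blue) and OA (red); none passed an adjusted p of 0.05. Control library 3 (blue triangle) is lowest for COL2A1, at 915.6 CPM, and for ACAN, COL10A1 and SOX9, and highest for COL1A1 and the muscle genes ACTA1 and MYH7.

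The 13 chondrocyte transcription factors and regulators had a median of 0.08 and no call. SOX9, the factor that drives type II collagen, stood in the order of COL2A1, with control library 3 lowest, and SOX5 and SOX6 overlapped between groups. Of the 14 hypertrophy and mineralisation genes 13 had negative fold changes, with a median of −0.38 and of −0.68 without control library 3. Bone sialoprotein, IBSP, was at 2418, 6951 and 1204 CPM in control and at 749, 791 and 1785 CPM in OA (−1.46 ± 0.81, adjusted p = 0.664). Indian hedgehog, IHH, the signal of prehypertrophic chondrocytes, was at 255, 417 and 8.79 CPM in control and at 101.7, 95.4 and 136.9 CPM in OA. The 17 small leucine-rich and fibrous matrix proteins had a median of 0.20, and COL1A1, the highest of all genes with a symbol by mean TPM, was at 160100, 114400 and 267900 CPM in control and at 93470, 89160 and 107200 CPM in OA (−0.87 ± 0.67, adjusted p = 0.807).

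Matrix-degrading proteases, which break down collagen and aggrecan in OA, gave no call in 19 genes and a median of −0.32, and 1 call, MMP8, without control library 3 or with the near-duplicates separate. The collagenase MMP13 was at 1911, 1809 and 2104 CPM in control and at 1366, 1356 and 1602 CPM in OA (−0.39 ± 0.51, adjusted p = 0.924). The aggrecanase ADAMTS5 was at 32.0, 26.8 and 38.3 CPM in control and at 37.2, 35.1 and 40.4 CPM in OA (0.24 ± 0.33, adjusted p = 0.928), with overlapping groups. ADAMTS4, the other aggrecanase, was at 11.3, 11.7 and 17.9 CPM in control and at 9.36, 8.90 and 9.96 CPM in OA. Every OA library lay under every control library in 5 of the 19 genes, MMP13 and ADAMTS4 among them, beside 14.7% of all genes. Every OA library lay above every control library in 3, beside 15.1% of all genes. MMP8 was the 1 gene of the list with a large fold change, and it also stands among the neutrophil granule proteins. The 10 protease inhibitors had no call and a median of −0.39, with 4 fold changes positive and 6 negative. A2M and SERPINA3 of this list were picked after their values were seen. A2M was at 2.83, 0.430 and 2.09 CPM in control and at 0.1095, 0.1079 and 0 CPM in OA (−4.51 ± 1.15, adjusted p = 0.117, and 0.0262 with 12 separate libraries). It rested on 0 to 19 counts per library. SERPINA3 was called higher with the 6 condylar cartilage libraries alone kept separate (adjusted p = 0.0449). TIMP1, an inhibitor of the metalloproteinases, was at 611, 736 and 405 CPM in control and at 214, 219 and 260.1 CPM in OA (−1.29 ± 0.36, adjusted p = 0.160, and 0.0199 with 12 separate libraries).

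Bone cell lists held no call. The 15 osteoblast and osteocyte genes had a median of −0.48 and the 14 osteoclast genes one of −0.24. SP7, the osteoblast transcription factor, was at 414, 405 and 380 CPM in control and at 206, 210.4 and 259 CPM in OA (−0.77 ± 0.46, adjusted p = 0.701). Cathepsin K, CTSK, the osteoclast protease, was at 829, 594 and 1069 CPM in control and at 533, 540.3 and 744 CPM in OA, with overlapping groups. Bone genes were thus well expressed in every library of both groups.

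Vessel lists also held no call, and with the near-duplicates separate ROBO4 and MCAM were lower. Of 15 endothelial genes 12 had negative fold changes, with a median of −0.51, and in 6 of them all OA libraries lay under all controls (14.7% of all genes did so). The receptor KDR was at 105.4, 79.9 and 105.2 CPM in control and at 59.4, 59.9 and 54.4 CPM in OA (−0.76 ± 0.31, adjusted p = 0.464). STAB2, a scavenger receptor of sinusoidal endothelium, went the other way, at 4.76, 3.37 and 19.99 CPM in control and 63.8, 53.2 and 26.4 CPM in OA (2.18 ± 0.77, adjusted p = 0.349, and 0.0406 without control library 3). The median was −0.65 for 13 genes of mural and smooth muscle cells. The skeletal muscle median of −4.33 rested on control library 3 and was 1.83 without it. The 11 synovial and loose connective tissue genes and the 11 nerve and Schwann cell genes had medians of 0.22 and −0.04. Without control library 3 these were 1.22, with 9 of the 11 synovial genes positive and 1 higher, CLIC5, and 0.32. With the near-duplicates separate 2 genes of the synovial list were higher, PRG4 and TIMD4, and 1 was lower, THY1. PRG4 also stands in the list of cartilage proteoglycans and glycoproteins.

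The 4 lists of growth factor signalling gave no call. The median was −0.24 for 21 Wnt genes, 0.03 for 27 TGF-beta and BMP genes, −0.29 for 11 Hedgehog and parathyroid hormone-related genes and −0.13 for 20 FGF and insulin-like growth factor genes. Picked after their values were seen, TGFBR3, a co-receptor for TGF-beta, was at 38.4, 30.9 and 53.5 CPM in control and at 96.8, 103.0 and 96.4 CPM in OA (1.26 ± 0.30, adjusted p = 0.0917, 0.0120 with 12 separate libraries and 0.0461 without control library 3). GDF10, a growth factor of that family, was at 0.298, 1.15 and 4.28 CPM in control and at 7.56, 9.06 and 15.8 CPM in OA (2.63 ± 0.71, adjusted p = 0.150, and 0.0147 without control library 3). These 2 TGF-beta genes and IGFBP2, a binding protein of insulin-like growth factors, were the calls of the 4 lists without control library 3, and with the near-duplicates separate the calls were TGFBR3, CHRDL1 and FGF18. OA library 3 was level with the near-duplicates for TGFBR3 and above them for GDF10.

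Cell cycle genes gave no call. Of 20 mitosis genes 18 had positive fold changes, with a median of 0.52, and of 19 DNA replication genes 17 had, with a median of 0.38. Without control library 3 these were 15 and 14 genes, with a median of 0.29 for both. The mitosis genes summed to 425, 488 and 239 CPM in control and to 836, 840 and 504 CPM in OA. The proliferation marker MKI67 was at 86.5, 93.4 and 45.0 CPM in control and at 320, 316 and 158.4 CPM in OA (1.67 ± 0.47, adjusted p = 0.171, and 0.0447 with 12 separate libraries). It was lower in OA library 3 than in the near-duplicates, as the blood genes were. HMGB2, a chromatin protein abundant in dividing cells that stands in no list, was called, from 17.9, 20.9 and 11.2 CPM to 82.4, 79.2 and 43.1 CPM (1.90 ± 0.36, adjusted p = 0.0373), but not without control library 3. Oxidative phosphorylation genes gave no call, the lowest adjusted p being 0.232. They were on the lower side in 21 of 22, with a median of −0.39. In 11 of them every OA library was under every control, again beside 14.7% of all genes. With the near-duplicates separate ATP5MC1 of this list was lower (adjusted p = 0.0355). The hypoxia and glycolysis genes had a median of −0.47 over 21. The unfolded protein response, immediate early and cytosolic ribosomal protein lists had medians of −0.34, −0.02 and 0.07. A gene of the last list is RPL8 in the RefSeq naming table and ZNF34 in the deposited table, and the median was 0.04 without it.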

How the data were processed

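Total RNA was extracted from tissue, ribosomal RNA was depleted and directional libraries were made, per the labels. Tools listed in the submitters' processing notes, without roles, are Salmon 1.1.0, STAR 2.7.9a, MultiQC 1.13, DESeq2 1.26.0, StringTie 2.1.0 and Trim Galore 0.6.7, and the genome build listed is OryCun2.0. The deposited table gives 14621 genes, each with a feature length and an estimated count per library. The file headers call these counts both normalised and raw; they were whole numbers with unequal totals and were used as raw. The deposited TPM values (transcripts per 1000000) equal count over length scaled to 1000000, and the deposited log2 TPM values were not used here. Salmon supplied the lengths, per the file headers. Symbols came from the table for 9813 genes and from a RefSeq table (assembly mOryCun1.1) for 1075, and 3733 had none. That assembly is not the build of the counts, so no coordinates or sequences are given.

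The test was that of edgeR 4.0.16 on R 4.3.3 (TMM scaling, filterByExpr with a minimum count of 10, quasi-likelihood F test, Benjamini-Hochberg adjustment over 14438 genes) in 1 model of both joint zones and both states with 10 samples, after summing near-duplicate pairs, and the method was tested on simulated counts. The SE is the absolute log2 fold change over the square root of F. CPM uses the TMM-scaled library total. No label ties a library to an animal, so p-values reflect the spread among these libraries only, which may be technical. Alternatives used limma 3.58.1 and DESeq2 1.42.0. There were 41 lists with 780 genes, 562 of them tested. The members of the comparison, the lists and the settings were chosen with earlier results of these data known. Named genes were the 15 of smallest p that were higher and had a symbol, all that were lower and had one, list members past the threshold, the first 4 measured of each list and the 10 of highest mean TPM. Some genes that meet this rule are not reported here. Others are named as chosen after their values were seen.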

Additional observations from a re-analysis of the deposited data

How the results depend on the processing

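Counts of genes higher and lower in OA were 118 and 7. They were 116 and 7 with median-of-ratios factors, 120 and 8 with no filter on low counts, 112 and 5 with protein-coding genes only, and 149 and 5 with library totals. They were larger with 12 separate libraries (369 and 72), the 6 condylar cartilage libraries alone kept separate (455 and 274), 12 libraries less control library 3 (480 and 104), samples less control library 3 and OA superficial zone library 1 (486 and 181), DESeq2 (291 and 60) and limma-voom with sample weights (981 and 559). Chosen after seeing the data, the condylar cartilage alone without control library 3 gave 234 and 90 with the pair summed and 944 and 801 with it separate. The condylar cartilage alone with the pair summed gave 0 and 0. Leaving out 1 library gave 0 to 188 higher and 0 to 16 lower, with 0 higher without control library 1. The cause of these shifts was not tested.

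No label pairs the samples by replicate number. Deviations of same-numbered control and OA condylar cartilage libraries from their group means correlated at −0.05, −0.18 and −0.26. With 3 libraries per group, and OA libraries 1 and 2 near-duplicates, these values cannot decide whether the samples are paired. A replicate block over 12 separate libraries gave 276 and 47.

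Among 198 named genes and 20 alternatives, none reversed a call. For the 54 called genes the lack of overlap between the groups made this all but certain. These 54 kept their call in 899 comparisons and lost it in 180. The 144 genes not called gained a call in 200 comparisons. They changed sign with no call in 194, and stayed uncalled with the same sign in 2448. Of the 41 list medians, 6 changed sign without control library 3, skeletal muscle from −4.33 to 1.83 among them. Depth of 7326255 to 16099688 counts limits genes under about 0.101 CPM in control, which is 3 counts over its 3 libraries, and that floor covers counting error only.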

Other observations

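By deposited TPM, structural RNAs and collagens led the condylar cartilage libraries. After COL1A1, with a mean of 79796 TPM over the 6 libraries, came 3 Metazoa_SRP genes with almost equal values, at 50561 to 50570 TPM on average, which are near-identical copies that share reads. RNaseP_nuc and RNase_MRP, RNA components of RNA-processing enzymes, had means of 33870 and 15216 TPM. SPARC, a matrix glycoprotein of bone, was steady, at 16896 to 23867 TPM in control and 16607 to 18237 TPM in OA.

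Keratin genes stood near the threshold on the lower side and were picked after their values were seen. KRT80 was at 2.38, 0.574 and 1.32 CPM in control and at 0.0548, 0 and 0 CPM in OA (adjusted p = 0.0502 in edgeR's quasi-likelihood test). KRT18 was at 3.42, 0.287 and 3.19 CPM in control and at the same 0.0548, 0 and 0 CPM in OA (adjusted p = 0.0621). Both are filament proteins of epithelial cells, and their levels rest on 4 to 29 counts in the control libraries.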
